A study of Homo sapiens with 4 samples.

Results

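The Wnt pathway genes described here are 10 members of 61806 genes counted in the human glioblastoma line U251-MG. They were chosen by gene name, and each name matched 1 gene of the count table. WNT5A and WNT5B are ligands, FZD1, FZD2, FZD7 and LRP6 are receptors, CTNNB1 and TCF7L2 carry the signal to the nucleus, and AXIN2 and DKK1 are targets that feed back on the pathway. Bulk RNA was sequenced from 2 groups of 2 libraries each. In the first group the cells carried a lentiviral pCDH-CMV-MCS-EF1-puro vector with the cDNA of COL8A1, a chain of the network-forming collagen VIII. In the second group (NC) they carried a negative control vector delivered in the same way. All cells were U251-MG, labelled as wild type in genotype and grown in DMEM with 10% fetal bovine serum, so that lentiviral infection and serum were common to both groups. The labels do not say whether each line was a clone or a pool, or whether replicate libraries stem from different cultures. The p-values therefore reflect library-to-library spread alone, and this may be technical.

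Wnt ligands are secreted lipid-modified glycoproteins that bind frizzled receptors on the cell surface. In the canonical branch, frizzled and the co-receptor LRP5 or LRP6 take AXIN away from a complex that marks beta-catenin for destruction, and the stabilised beta-catenin joins TCF and LEF proteins on target genes. WNT5A and WNT5B are mostly known for branches that act without beta-catenin on cell polarity and movement, and WNT5A is known for its part in glioma cell invasion.

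The total count was 31605164 and 27923796 in COL8A1 replicates 1 and 2, and 30895414 and 33576228 in NC replicates 1 and 2. Scaling factors ran from 0.993 to 1.01. COL8A1 itself had 4290 and 2259 counts in COL8A1 libraries, against 77 and 82 in NC libraries, a direction that matches the labels (log2 fold change 5.45, SE 0.32, edgeR adjusted p = 0.0681). It passed with DESeq2 (adjusted p = 6.25e-72), in edgeR with no low-count filter (adjusted p = 0.00737) and in edgeR without COL8A1 replicate 2 (adjusted p = 0.0313). Of the 11 glial and glioma markers, VIM averaged 2923 CPM (counts scaled to library size) in COL8A1 cells and 2821 CPM in NC cells, and SOX2, NES and CD44 were each above 390 CPM in every library. GFAP, the astrocyte filament, was low, at 2.05 and 1.84 CPM in COL8A1 libraries and 0.685 and 0.564 CPM in NC libraries (log2 fold change 1.63, SE 0.35, edgeR adjusted p = 0.580), and AQP4 and ALDH1L1 had 0 counts. All 9 tested glial and glioma markers had a positive sign, and the summed level of the list was 5068 and 4484 CPM in COL8A1 libraries and 4157 and 4733 CPM in NC libraries, which overlap, a sum of which VIM makes up the larger part. SLC1A3, a glial glutamate transporter, was at 52.8 and 59.2 CPM in COL8A1 libraries and 27.3 and 27.2 CPM in NC libraries (log2 fold change 1.04, SE 0.10, edgeR adjusted p = 0.165, DESeq2 adjusted p = 2.52e-10). FABP7, a fatty acid binding protein of radial glia, was at 49.97 and 48.4 CPM in COL8A1 libraries and 32.1 and 36.8 CPM in NC libraries (log2 fold change 0.51, SE 0.11, edgeR adjusted p = 0.580, DESeq2 adjusted p = 0.0461). SOX9, a glial transcription factor, was at 190.8 and 183.5 CPM in COL8A1 libraries and 162 and 154 CPM in NC libraries (edgeR adjusted p = 0.690). The part of these markers in the results was not tested. Genes known from other cell types were also read. KRT14 was at 86.2 CPM in COL8A1 cells and 95.5 CPM in NC cells. KRT5 went the other way, at 70.6 CPM in COL8A1 cells and 53.7 CPM in NC cells. CDH5 was at 69.2 CPM in COL8A1 cells and 62.7 CPM in NC cells. Of 4 endothelial markers tested, it was the only 1 that was higher. The neuron marker SYT1 was at 23.8 CPM in COL8A1 cells and 28.3 CPM in NC cells. GAD1, the other neuron marker tested, went the other way, at 6.84 CPM in COL8A1 cells and 6.25 CPM in NC cells. The immune marker CD68 was at 3.75 CPM in COL8A1 cells and 5.07 CPM in NC cells. EPCAM, PECAM1 and PTPRC stayed under 1 CPM in each library.

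No member passed the threshold. Of 17030 genes tested with edgeR, 2 had an adjusted p under 0.05, which is 0.0117%, and 0 of the 10 members were among them. DESeq2 called 1.06% of the genes and also 0 members. At an unadjusted edgeR p under 0.05, 2 members, DKK1 and CTNNB1, were higher in COL8A1 cells, against 3.44% of all genes in that direction, and 0 members were lower, against 2.63%. The sign was positive in 9 of 10 members, against 50.2% of all genes tested, and the median log2 fold change was 0.12 for the members and 0.0011 for all genes. The COL8A1 and NC libraries did not overlap in 7 members that were higher in COL8A1 cells, against 18.9% of all genes, nor in 1 member that was lower, against 18.6%. The members were chosen with earlier results of these data known, so these shares are descriptions. In bulk RNA, fewer cells that express a gene and less of its RNA per cell cannot be told apart.

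**Figure D1:**
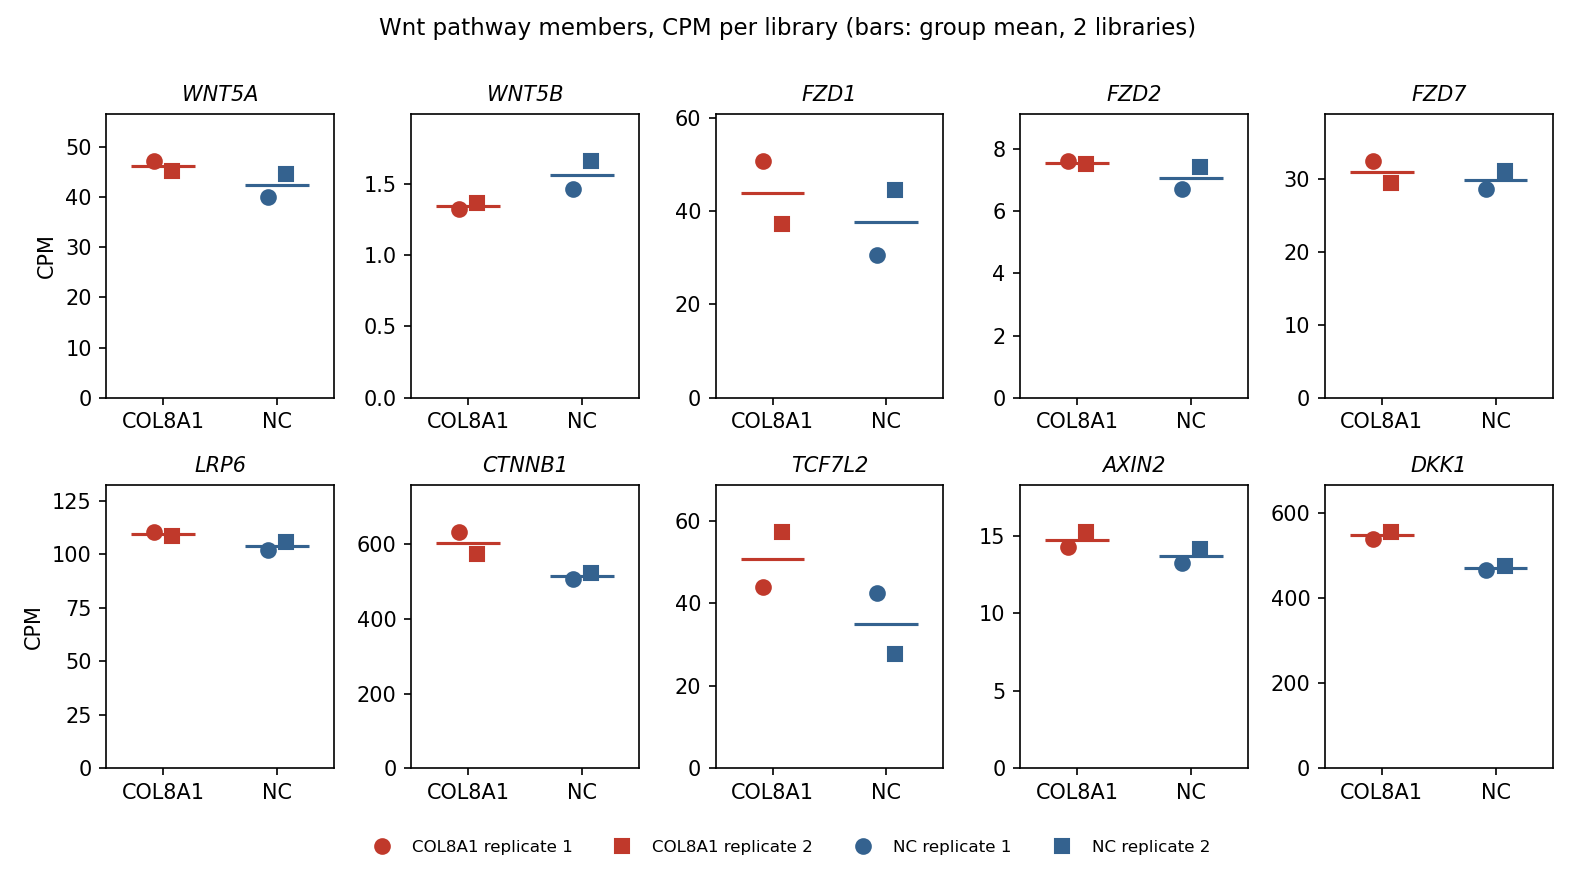
CPM (vertical axis, from 0, a separate scale for each gene) of the 10 members in the 2 COL8A1 libraries (red) and the 2 NC libraries (blue), with circles for replicate 1, squares for replicate 2 and bars for group means. DKK1 and CTNNB1 are higher in both COL8A1 libraries than in both NC libraries, and the spread within groups is widest in FZD1 and TCF7L2.

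The sequences just upstream of DKK1 and CTNNB1, the members with the smallest p-values, were searched for a motif of TCF and LEF proteins. Beta-catenin acts on DNA through these proteins. The motif was CTTTGA, which reads as TCAAAG on the other strand. Other forms of their sites were not searched, so the match counts and shares cover this form alone. Each sequence is the 250 bases before a RefSeq start of the gene (build GRCh38.p14), on the plus strand and 5′ to 3′. Matches to the motif are in capitals. The DKK1 window lies at chr10:52314031-52314280 and the CTNNB1 window at chr3:41199255-41199504.
DKK1: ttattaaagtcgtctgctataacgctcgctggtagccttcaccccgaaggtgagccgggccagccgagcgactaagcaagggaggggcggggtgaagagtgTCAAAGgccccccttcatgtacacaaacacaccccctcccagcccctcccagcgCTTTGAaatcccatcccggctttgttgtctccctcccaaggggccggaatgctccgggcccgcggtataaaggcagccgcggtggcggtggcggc
CTNNB1: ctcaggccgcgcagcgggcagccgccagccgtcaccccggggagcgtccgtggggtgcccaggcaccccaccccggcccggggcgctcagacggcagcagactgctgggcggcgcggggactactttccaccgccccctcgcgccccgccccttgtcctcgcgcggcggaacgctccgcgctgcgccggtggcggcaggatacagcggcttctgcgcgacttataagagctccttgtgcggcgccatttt

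The DKK1 window held 2 matches, which begin 149 and 95 bases before the start, and the CTNNB1 window held 0. Of 35116 RefSeq promoter windows of this length, 11.2% held at least 1 match on either strand and 0.977% held at least 2. Of the 16467 windows of genes tested here, 8.25% held at least 1 and 0.559% at least 2. RefSeq windows were found for 6 members (WNT5A, WNT5B, FZD1, CTNNB1, DKK1 and TCF7L2), 10 windows in all, and the other 9 windows held 0 matches. A match of 6 letters is a description of the sequence and does not show that a protein binds there.

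DKK1 (ENSG00000107984; chromosome 10, 52314296 to 52318042, plus strand) encodes Dickkopf-1, a secreted inhibitor that binds LRP5 and LRP6 and is itself a beta-catenin target. It was at 538.9 and 555 CPM in COL8A1 replicates 1 and 2, and at 465 and 474 CPM in NC replicates 1 and 2. Both COL8A1 libraries lay above both NC libraries, and the replicates differed by 0.04 in COL8A1 cells and 0.03 in NC cells on the log2 scale. The log2 fold change was 0.22 (SE 0.05, 95% interval 0.08 to 0.36), with means of 547 ± 11.4 CPM in COL8A1 cells and 469.6 ± 6.75 CPM in NC cells (SD, n = 2 each). The unadjusted edgeR p was 0.0104 and the adjusted p 0.648, so the difference did not pass over all genes. The unadjusted edgeR p was 0.0798 without NC replicate 1 and 0.0508 without NC replicate 2. PRKG1-AS1, an antisense gene that shares 212 exon bases with DKK1, had 130 and 158 counts in COL8A1 libraries and 168 and 191 in NC libraries, against 14254 to 17127 for DKK1.

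AXIN2 (ENSG00000168646; chromosome 17, 65528563 to 65561647, minus strand), a scaffold of the destruction complex, is a target widely read as a measure of beta-catenin activity. It was at 14.3 and 15.2 CPM in COL8A1 replicates 1 and 2, and at 13.2 and 14.2 CPM in NC replicates 1 and 2. The lowest COL8A1 library was barely above the highest NC library. The log2 fold change was 0.11 (95% interval −0.22 to 0.44, edgeR adjusted p = 0.902), an interval that spans a 1.35-fold increase and a ratio of 0.856. Its log2 fold change was 0.054 without COL8A1 replicate 2 and 0.057 without NC replicate 1. Of the 50-base stretches in AXIN2 transcripts, 24.1% also occur in transcripts of other genes. AC004805.1, an overlapping gene on the same strand, shares the most of them. It had 0 counts in both COL8A1 libraries and 0 and 5 in the NC libraries. How reads in the shared bases were counted is not given, so these low counts do not show that AXIN2 lost no reads.

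CTNNB1 (ENSG00000168036; chromosome 3, 41194741 to 41260096, plus strand) encodes beta-catenin, whose amount is set mainly by protein breakdown, a step that RNA counts do not measure. It was at 633 and 575 CPM in COL8A1 replicates 1 and 2, and at 507 and 523 CPM in NC replicates 1 and 2. The groups did not overlap, and the COL8A1 libraries differed from each other by more than the NC libraries did. The log2 fold change was 0.23 (SE 0.07, 95% interval 0.05 to 0.41), with means of 604 ± 41.2 CPM in COL8A1 cells and 515 ± 11.6 CPM in NC cells (SD, n = 2 each). In edgeR the p was 0.0229 before adjustment and 0.742 after it. Before adjustment it was 0.112 without NC replicate 1 and 0.0664 without NC replicate 2.

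TCF7L2 (ENSG00000148737; chromosome 10, 112950250 to 113167678, plus strand) encodes TCF4, a DNA-binding partner of beta-catenin. It had the largest log2 fold change of the 10 members, 0.53, and its 4 libraries spanned 1.05 on that scale, more than those of any other member. It was at 44.0 and 57.3 CPM in COL8A1 replicates 1 and 2, and at 42.5 and 27.6 CPM in NC replicates 1 and 2. COL8A1 replicate 1 and NC replicate 1 lay close together, and the difference came from the high COL8A1 replicate 2 and the low NC replicate 2. The 95% interval ran from −0.14 to 1.20 and the edgeR adjusted p was 0.835. The log2 fold change was 0.32 without COL8A1 replicate 2, 0.25 without NC replicate 2 and 0.87 without NC replicate 1.

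**Figure D2:**
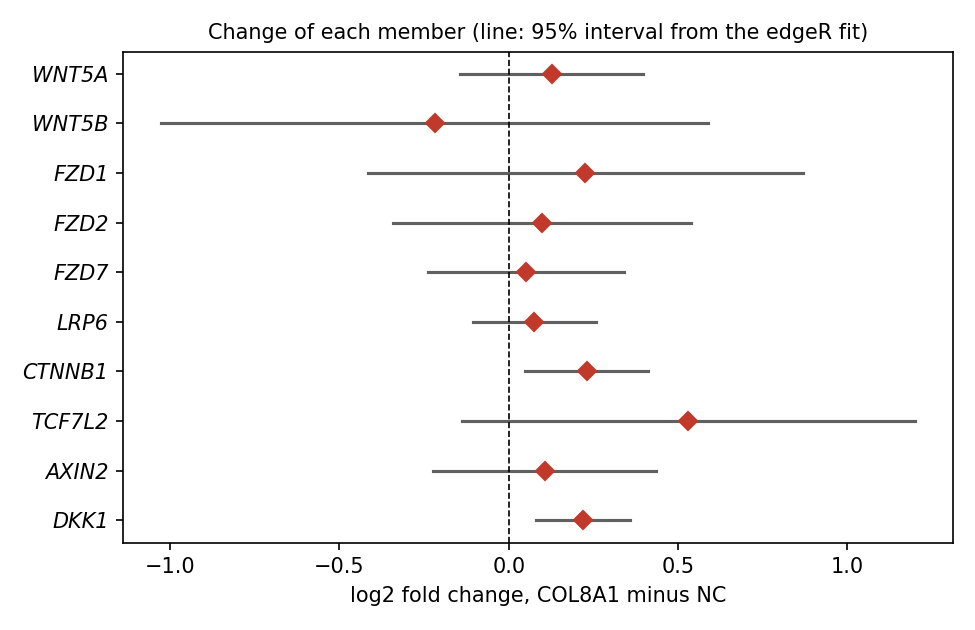
Log2 fold change of each member, COL8A1 minus NC (horizontal axis; diamonds), with the 95% interval from the edgeR fit (lines) and 0 dashed. The intervals of DKK1 (0.08 to 0.36) and CTNNB1 (0.05 to 0.41) lie above 0 before any adjustment over the genes tested, and that of WNT5B (−1.03 to 0.59) is among the widest.

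Among the ligands, WNT5A (ENSG00000114251; chromosome 3, 55465715 to 55490539, minus strand) was at 47.2 and 45.3 CPM in COL8A1 replicates 1 and 2, and at 40.1 and 44.7 CPM in NC replicates 1 and 2. The gap between COL8A1 replicate 2 and NC replicate 2 was smaller than that between the NC replicates. Its log2 fold change was 0.13 (95% interval −0.14 to 0.40, edgeR adjusted p = 0.867), and it was 0.048 without NC replicate 1 and 0.20 without NC replicate 2. WNT5B (ENSG00000111186; chromosome 12, 1529891 to 1647243, plus strand), its closest relative, was at 1.32 and 1.37 CPM in COL8A1 replicates 1 and 2, and at 1.47 and 1.66 CPM in NC replicates 1 and 2. These levels rest on 42 and 38 counts in COL8A1 libraries and on 45 and 56 counts in NC libraries, and the 95% interval of its log2 fold change ran from −1.03 to 0.59. That log2 fold change, −0.22 (edgeR adjusted p = 0.921), was the only negative one of the 10, and it was −0.13 without NC replicate 2.

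The frizzled receptors FZD1, FZD2 and FZD7 are close relatives, each with 1 exon, and FZD7 is known for stem cell and progenitor states. FZD1 (ENSG00000157240; chromosome 7, 91264364 to 91271326, plus strand) was at 50.8 and 37.2 CPM in COL8A1 replicates 1 and 2, and at 30.7 and 44.5 CPM in NC replicates 1 and 2. The groups overlapped, with 1 high and 1 low library in each. Its log2 fold change was 0.23 (95% interval −0.42 to 0.87, edgeR adjusted p = 0.892), and it was −0.014 without COL8A1 replicate 1 and −0.017 without NC replicate 1.

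FZD7 (ENSG00000155760; chromosome 2, 202034587 to 202038445, plus strand) was at 32.4 and 29.5 CPM in COL8A1 replicates 1 and 2, and at 28.6 and 31.2 CPM in NC replicates 1 and 2. These groups also overlapped, and the log2 fold change was 0.05 (95% interval −0.24 to 0.34, edgeR adjusted p = 0.957). Without COL8A1 replicate 1 it was −0.021, and without NC replicate 1 it was −0.011. FZD2 (ENSG00000180340; chromosome 17, 44557459 to 44559570, plus strand) was at 7.62 and 7.53 CPM in COL8A1 replicates 1 and 2, and at 6.72 and 7.42 CPM in NC replicates 1 and 2. The difference was 0.10 on the log2 scale (95% interval −0.34 to 0.54, edgeR adjusted p = 0.939), and it was 0.028 without NC replicate 1 and 0.17 without NC replicate 2. Of their 50-base stretches, 0.463% in FZD1, 2.67% in FZD2 and 0.525% in FZD7 also occur in transcripts of other genes, and 0 of their 100-base stretches do.

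LRP6 (ENSG00000070018; chromosome 12, 12116025 to 12267012, minus strand), the co-receptor that both canonical ligands and DKK1 bind, was the steadiest member. It was at 110.4 and 108 CPM in COL8A1 replicates 1 and 2, and at 102 and 105.5 CPM in NC replicates 1 and 2. All 4 libraries together spanned 0.11 on the log2 scale. The log2 fold change was 0.08 (95% interval −0.10 to 0.26, edgeR adjusted p = 0.874), which bounds a change at a ratio of 0.93 to 1.19, and without NC replicate 1 the log2 fold change was 0.051.

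Levels between genes were compared as CPM per kilobase of merged exons. DKK1 was the highest member, at 248 in COL8A1 cells and 213 in NC cells, followed by CTNNB1 at 50.7 in COL8A1 cells and 43.2 in NC cells, and LRP6 at 10.6 in COL8A1 cells and 10.0 in NC cells. Each of these 3 was separated from the next gene in the order over all 4 libraries. FZD7 (8.02 in COL8A1 and 7.74 in NC cells), TCF7L2 (7.52 in COL8A1 and 5.20 in NC cells), WNT5A (6.26 in COL8A1 and 5.73 in NC cells) and FZD1 (6.32 in COL8A1 and 5.40 in NC cells) followed, and the ranges of neighbours among these 4 overlapped. FZD2 (3.59 in COL8A1 and 3.35 in NC cells), AXIN2 (2.82 in COL8A1 and 2.62 in NC cells) and WNT5B (0.312 in COL8A1 and 0.363 in NC cells) came last and were separated from each other. AXIN2 shares 1316 of its 5226 exon bases with AC004805.1 on the same strand. How reads in shared bases were counted is not given, so the level of AXIN2 may be too low and its order with FZD2 is not settled.

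**Figure D3:**
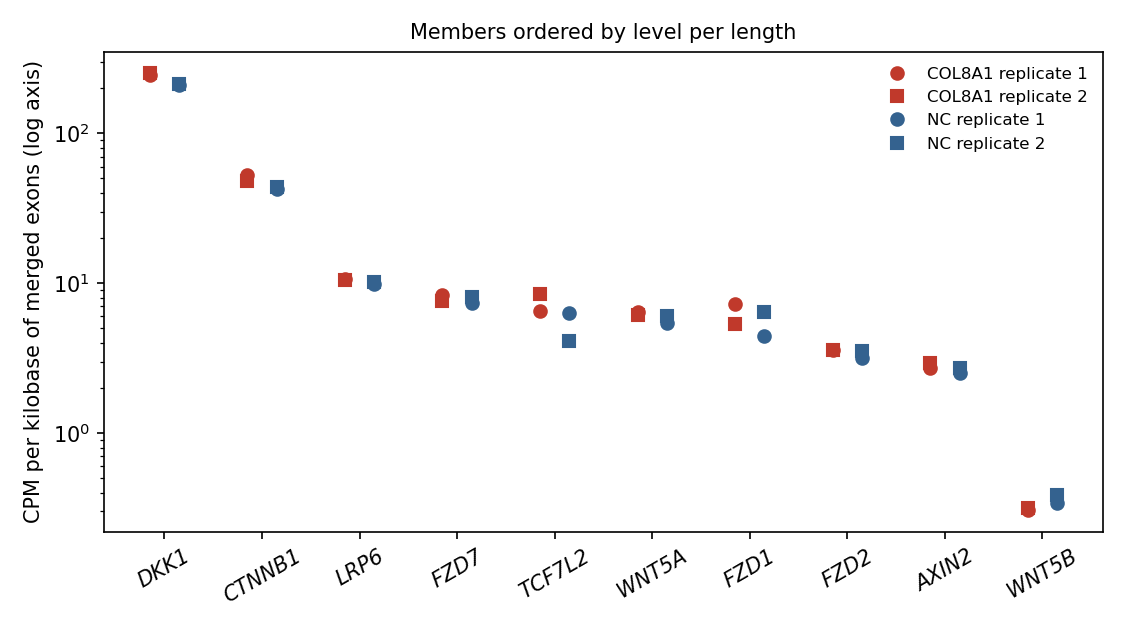
CPM per kilobase of merged exons (vertical log axis) for the 10 members, ordered by their mean over the 4 libraries, with COL8A1 libraries in red and NC libraries in blue. DKK1 stands at 210.7 or higher in every library, while FZD7, TCF7L2, WNT5A and FZD1 form a range in which the order of neighbours is not separated.

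FZD1 and TCF7L2 were the 2 members whose 4 libraries spanned at least 0.5 on the log2 scale, which 44.4% of all genes tested also did. Among 125 other pathway genes, the pattern of FZD1 over the 4 libraries was nearest to those of CAMK2D (root mean square distance 0.122 on the log2 scale) and NOTUM (0.145). The pattern of TCF7L2 was nearest to those of WLS (0.204) and CSNK1G1 (0.211). With 4 libraries these distances describe the libraries only.

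The other genes of the pathway, 147 in 8 lists, showed which parts of the system these cells express. Of 17 other Wnt ligands 6 were tested, and 7 had 0 counts in every library. WNT7B, at 95.9 ± 20.7 CPM in COL8A1 cells and 96.0 ± 9.47 CPM in NC cells (SD, n = 2 each), and WNT9A, at 44.8 ± 2.49 CPM in COL8A1 cells and 41.9 ± 2.40 CPM in NC cells, were the best counted of them, named after their values were seen. WNT3, a canonical ligand, was at 4.78 and 4.72 CPM in COL8A1 libraries, against 5.32 and 5.49 CPM in NC libraries (edgeR adjusted p = 0.889). WNT11, at 0.35 and 0.50 CPM in COL8A1 libraries against 0.13 and 0.15 CPM in NC libraries, rests on 4 to 14 counts (edgeR adjusted p = 0.817), and WNT10A was at 0.755 and 0.936 CPM in COL8A1 libraries against 0.848 and 1.69 CPM in NC libraries.

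Over the 116 list genes tested, 71 had a positive log2 fold change (61.2%, against 50.2% of all genes) and 45 a negative one. Their median was 0.05. Of them 9 were higher and 2 lower in COL8A1 cells at an unadjusted edgeR p under 0.05, which is 9.48% against 6.07% of all genes, and 0 passed after adjustment. DESeq2 called 3 of the 116, against 1.06% of all genes: APCDD1 and CSNK1G1, which were higher, and NFATC3, which was lower. In the simulated data described under processing, DESeq2 made 78 false calls among 16544 genes and edgeR 26, so calls by DESeq2 alone are to be read with care.

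Extracellular and membrane inhibitors had the highest median of the 8 lists, 0.33, with 12 of 13 tested genes positive, against 50.2% of all genes. The groups did not overlap in 9 of them that were higher in COL8A1 cells, against 18.9% of all genes. The list was chosen with earlier results of these data known. In edgeR 0 of its genes passed, against 0.0117% of all genes, and in DESeq2 1 passed, against 1.06%. APCDD1, a membrane glycoprotein that binds Wnt and LRP proteins and is also a beta-catenin target, was at 20.2 and 18.0 CPM in COL8A1 libraries and at 10.4 and 11.6 CPM in NC libraries. Both COL8A1 libraries lay well above both NC libraries, with a log2 fold change of 0.80 (SE 0.14, 95% interval 0.43 to 1.16), an edgeR adjusted p of 0.470 and a DESeq2 adjusted p of 0.00637.

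KREMEN1, a receptor for Dickkopf proteins that helps remove LRP6 from the surface, was at 10.5 and 8.82 CPM in COL8A1 libraries and at 6.03 and 4.24 CPM in NC libraries (log2 fold change 0.91, SE 0.24, edgeR adjusted p = 0.670). SFRP1, a secreted frizzled-related protein that binds Wnt ligands, was at 81.1 and 71.2 CPM in COL8A1 libraries and at 54.4 and 63.3 CPM in NC libraries (log2 fold change 0.37, SE 0.12, edgeR adjusted p = 0.774). Neither pair of groups overlapped, and both missed the DESeq2 threshold too. DKK3, which carries the Dickkopf name, was the 1 tested gene of this list with a negative sign, at 8.81 and 23.5 CPM in COL8A1 libraries and at 21.1 and 22.8 CPM in NC libraries, so that its sign came from COL8A1 replicate 1.

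**Figure D4:**
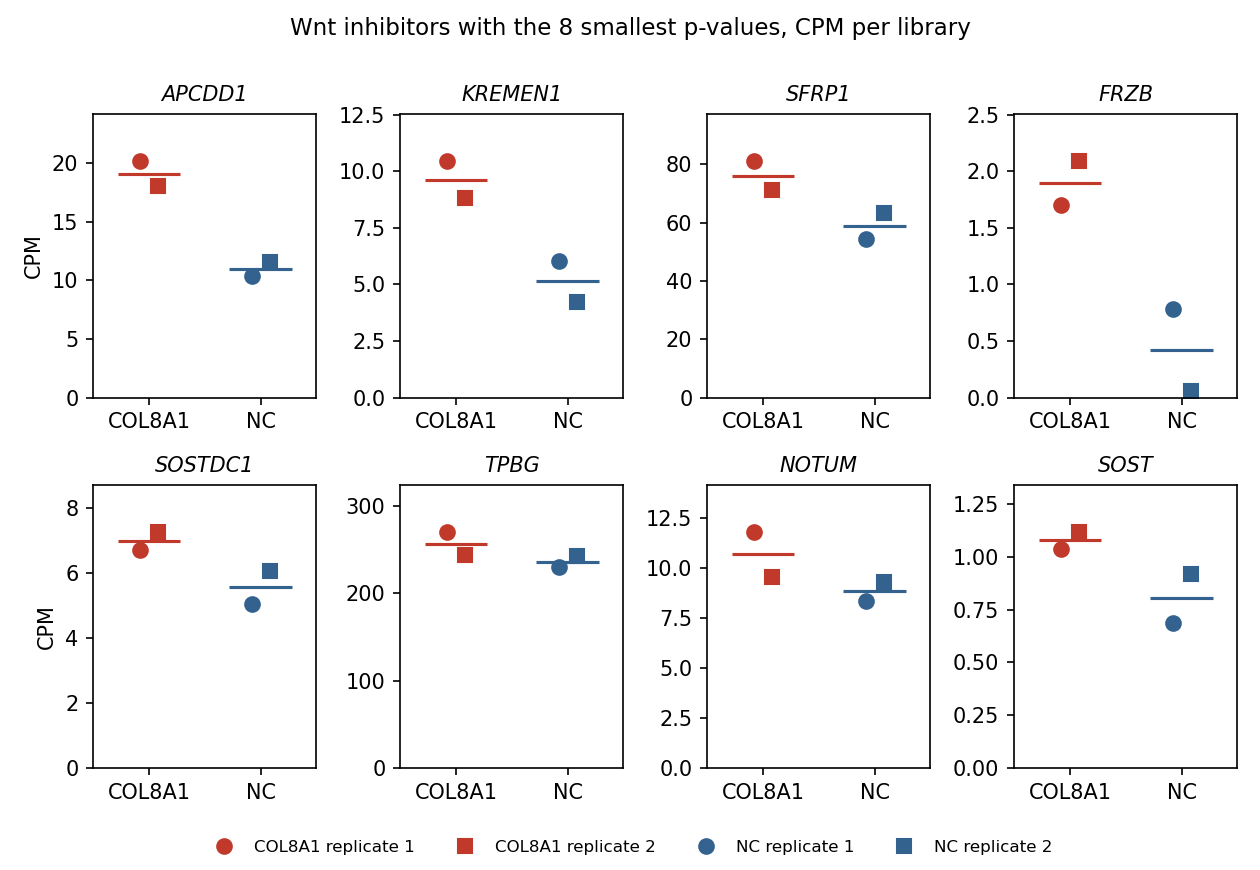
CPM (vertical axis, from 0, a separate scale for each gene) of the 8 Wnt inhibitors with the smallest p-values in COL8A1 libraries (red) and NC libraries (blue), with bars for the means of 2 libraries. APCDD1 and KREMEN1 are clearly separated between the groups, and FRZB and SOST, both at under 2.1 CPM in each library, rest on few counts.

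The ligand and agonist machinery went both ways, with 4 of 8 tested genes positive and a median of 0.02. WLS, the carrier that takes Wnt ligands to the surface, was at 109 and 115 CPM in COL8A1 libraries and at 95.6 and 82.1 CPM in NC libraries (log2 fold change 0.33, SE 0.10, edgeR adjusted p = 0.742). LGR6, a receptor for R-spondins, was at 337 and 310.3 CPM in COL8A1 libraries and at 274.5 and 279.7 CPM in NC libraries (0.22, SE 0.07, adjusted p = 0.742 in edgeR). PORCN, which attaches the lipid to Wnt ligands, was at 15.7 and 17.6 CPM in COL8A1 libraries and at 19.1 and 21.1 CPM in NC libraries (−0.27, SE 0.13, edgeR adjusted p = 0.835). All 4 R-spondin genes were too low to be tested.

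The other frizzled receptors and co-receptors had 10 of 11 tested genes positive, against 50.2% of all genes, with a median of 0.11. Of these 11 genes 0 had an unadjusted edgeR p under 0.05, against 6.07% of all genes. FZD6, a receptor known for planar polarity, was at 139 and 110.0 CPM in COL8A1 libraries and at 99.3 and 102 CPM in NC libraries (log2 fold change 0.31, SE 0.13, edgeR adjusted p = 0.817), and its log2 fold change was 0.13 without COL8A1 replicate 1 and 0.46 without COL8A1 replicate 2. FZD8 stood 0.29 (SE 0.15) higher on the log2 scale in COL8A1 cells and ADGRA2, a co-receptor for WNT7 ligands, 0.51 (SE 0.24) higher, both with an edgeR adjusted p of 0.835. Without NC replicate 1 these differences were 0.15 for FZD8 and 0.33 for ADGRA2, and without NC replicate 2 that of FZD8 was 0.43. ADGRA2 shares 1629 exon bases with BRF2 on the other strand, whose counts exceeded its own in every library. ROR2, a receptor known for WNT5A, had 0 to 2 counts per library, while ROR1 was at 7.84 ± 0.346 CPM in COL8A1 cells and 6.94 ± 0.376 CPM in NC cells (SD, n = 2 each).

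In the dishevelled and destruction complex list 12 of 22 tested genes were positive, with a median of 0.06. CSNK1G1, a casein kinase at the membrane, was at 40.7 and 41.5 CPM in COL8A1 libraries and at 29.1 and 26.6 CPM in NC libraries (log2 fold change 0.56, SE 0.10, edgeR adjusted p = 0.497, DESeq2 adjusted p = 0.0103). AC087632.1, which shares 1582 exon bases with it on the same strand, had 31 and 0 counts in COL8A1 libraries and 36 and 132 in NC libraries. CSNK1D and CSNK1G2, further casein kinases, differed by log2 values of 0.18 (SE 0.06) and 0.14 (SE 0.07), COL8A1 minus NC, with edgeR adjusted p-values of 0.803 and 0.835. CSNK1D shares 482 exon bases with SLC16A3 on the other strand. SLC16A3 had 3064 and 6485 counts in COL8A1 libraries and 4879 and 3077 in NC libraries. CSNK1D also shares 1262 exon bases with AC132872.4 on the other strand, which had 58 and 47 counts in COL8A1 libraries and 51 and 36 in NC libraries.

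Nuclear partners of beta-catenin had 12 of 20 tested genes positive, with a median of 0.03. TLE5, a member of the Groucho family, was at 453 and 435 CPM in COL8A1 libraries and at 391 and 389 CPM in NC libraries (log2 fold change 0.19, SE 0.05, edgeR adjusted p = 0.732). TCF7L1, which mostly represses targets, had a log2 fold change of −0.43 (SE 0.18, edgeR adjusted p = 0.825), and TLE3 one of 0.21 (SE 0.10, edgeR adjusted p = 0.835). That of TCF7L1 was −0.65 without COL8A1 replicate 1 and −0.24 without COL8A1 replicate 2, and that of TLE3 was 0.14 without NC replicate 2.

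Of genes reported as beta-catenin targets in other systems, 13 of 20 tested were positive, with a median of 0.07, and 3 had 0 counts in every library. Besides APCDD1, MMP7, a matrix metalloproteinase, had an unadjusted p under 0.05 and went the other way, at 4.66 and 4.50 CPM in COL8A1 libraries and at 9.07 and 7.92 CPM in NC libraries (log2 fold change −0.89, SE 0.18, edgeR adjusted p = 0.572, DESeq2 adjusted p = 0.0517). TNFRSF19 was at 3.02 and 2.81 CPM in COL8A1 libraries and at 2.05 and 1.99 CPM in NC libraries (0.53, SE 0.25, edgeR adjusted p = 0.835). CCND1, the cyclin D1 gene, was at 618 and 809 CPM in COL8A1 libraries and at 839.5 and 707 CPM in NC libraries, and these groups overlapped.

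In the planar polarity and non-canonical list 13 of 24 tested genes were positive, with a median of 0.01. NFATC3, a calcium-regulated transcription factor, was at 53.2 and 49.7 CPM in COL8A1 libraries and at 70.1 and 80.8 CPM in NC libraries (log2 fold change −0.55, SE 0.11, edgeR adjusted p = 0.550, DESeq2 adjusted p = 0.015). AC020978.7, which shares 1385 exon bases with NFATC3 on the same strand, had 18 and 24 counts in COL8A1 libraries and 54 and 100 in NC libraries. CELSR2, a polarity cadherin, was at 258 and 233 CPM in COL8A1 libraries and at 190.3 and 198 CPM in NC libraries (0.34, SE 0.08, edgeR adjusted p = 0.617). PRICKLE2, another polarity gene, had a log2 fold change of 0.49 (SE 0.19, edgeR adjusted p = 0.816), which was 0.28 without NC replicate 1 and 0.73 without NC replicate 2.

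**Figure D5:**
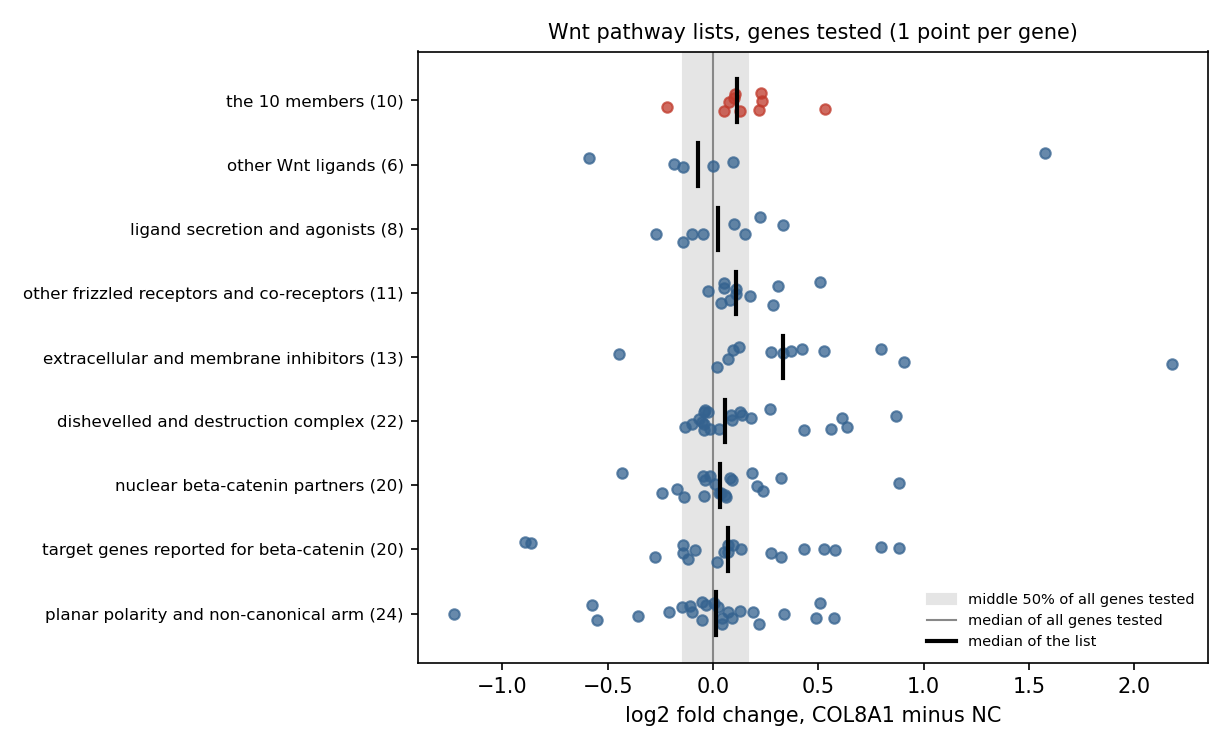
Log2 fold change, COL8A1 minus NC (horizontal axis), of each tested gene in the members (red) and the 8 pathway lists (blue), with the number tested in brackets, the list median as a black bar, and the middle 50% and median of all genes tested in grey. The inhibitor list has the highest median (0.33), the members lie at 0.12, and the 6 other Wnt ligands lie at −0.07.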

How the data were processed

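The deposited values are raw counts of reads for each gene and library, which the authors did not normalize. Per the submitters' processing notes, the tools were HISAT2 2.2.1, Trim Galore 0.6.9 and featureCounts, whose version is listed as 0.3, with build hg38. Not given in the sources used here are the strand setting, the parameters and the annotation release. Reads of genes that overlap on opposite strands therefore cannot be told apart. A line that was no gene was left out. Counts were tested in R 4.3.3 with edgeR 4.0.16 (filterByExpr, TMM, quasi-likelihood F-test, group as the only term) over 17030 genes, with Benjamini-Hochberg adjustment and a threshold of 0.05. SE is the absolute log2 fold change over the square root of F, and 95% intervals use SE and the total degrees of freedom (2 residual, prior 2.64). CPM used TMM-scaled library sizes. An exact permutation test of 2 against 2 libraries cannot go below a two-sided p of 0.333, so it was not used. Gene positions and exon lengths came from GENCODE 29 (58254 of 61806 genes matched). Alternatives were other scaling, filters, DESeq2 1.42.0, limma-voom (limma 3.58.1), robust dispersion, a replicate block and each library left out. In simulated data of this comparison (16544 genes), 100 genes were changed 2-fold and 100 were changed 4-fold. They were picked only among genes above a floor on mean count, and smaller changes were not simulated. There edgeR made 26 false calls and recovered 30% of 2-fold and 87% of 4-fold differences. DESeq2 made 78 false calls and recovered 63% of 2-fold and 91% of 4-fold differences. The simulated counts were drawn from a negative binomial model with the dispersion fitted to each gene. In the real libraries COL8A1 itself, at a log2 fold change of 5.45, missed the edgeR threshold (adjusted p = 0.0681). The recovered shares may therefore not hold for the real libraries. Named genes were COL8A1, the members, the 3 smallest p-values of each list, and the 2 genes nearest in pattern to members spanning at least 0.5; others were named after their values were seen. Members and lists were chosen with earlier results of these data known. Replicates of each group differed by more than sampling noise (chi-square per degree of freedom 38.3 in COL8A1 and 35.2 in NC).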

Additional observations from a re-analysis of the deposited data

How the results depend on the processing

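Across other scaling, other filters, DESeq2, limma-voom, robust dispersion shrinkage, the replicate block and each library left out, 0 members passed the adjusted threshold. Genes called over the whole table numbered 2, against 17 without a low-count filter, 180 with DESeq2, 14 with robust dispersion shrinkage, 1 with the replicate number as a block, and 0 to 3 with a library left out. DESeq2 called 3 pathway genes where edgeR called 0. The count of members at an unadjusted p under 0.05 ran from 0 (without NC replicate 2) to 2 with a library left out. The log2 fold change of DKK1 ran from 0.20 to 0.24 and that of CTNNB1 from 0.16 to 0.30 over those fits. That of FZD1 ran from −0.017 to 0.52, that of FZD7 from −0.021 to 0.12 and that of CAMK2D from −0.11 to 0.26, turning sign without COL8A1 replicate 1 or NC replicate 1. The members with a positive sign numbered 7 to 9, and the inhibitors 10 to 14 (no low-count filter tests more genes), counts added after seeing the data. Same-numbered deviations from the group means correlated at −0.036 over genes. This value cannot tell whether same-numbered libraries were handled together.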

Other observations

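In 6 list genes that averaged 300 counts or more, 1 library stood at least 1 apart from the nearest other on the log2 scale, 6.59% of the 91 such list genes against 2.17% of all 10040 such genes and 0 of 8 members. The rule was chosen after seeing the data. APC, the scaffold of the destruction complex, was at 50.4 and 68.0 CPM in COL8A1 libraries and at 53.3 and 11.5 CPM in NC libraries. MYC, a growth-promoting transcription factor, was at 38.3 and 40.0 CPM in COL8A1 libraries and at 41.0 and 11.5 CPM in NC libraries. CXXC5, which binds dishevelled, was at 33.5 and 27.5 CPM in COL8A1 libraries and at 28.8 and 11.1 CPM in NC libraries. All 3 were low in NC replicate 2, the library in which TCF7L2 was lowest too. VANGL1, a polarity protein, was low in NC replicate 1 (89.2 CPM, against 201 to 208 CPM in the other 3 libraries), and CDC42, a small GTPase, was high there (309 CPM, against 128 to 153 CPM). DKK3 was low in COL8A1 replicate 1. The cause was not tested.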
